A study of Mus musculus with 20 samples.

Results

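Interleukin 33 and the receptors of the interleukin 1 axis are represented here by 5 genes, picked by symbol from the 24393 genes of a count table: Il33, Il1rl1, Il1r1, Il1r2 and Il1rap. All 5 passed the filter on low counts that left 14179 genes. They were brought together with earlier results of these data known, so their levels and their differences between groups are a description and carry no p-value here. The study measured RNA in 3 cell populations of mouse quadriceps, tibialis anterior and gastrocnemius, under a title asking which cells express matrix in fibrotic skeletal muscle. There were 4 libraries of FAP DKO and 4 of FAP WT, 4 of Misc DKO and 4 of Misc WT, and 2 of SMP DKO and 2 of SMP WT. The usual meaning of FAP is fibro/adipogenic progenitor, a mesenchymal cell of the muscle interstitium, and that of SMP is skeletal muscle progenitor. The design text lists FB where the labels write Misc, and nothing ties the names to each other. The labels do not spell out DKO, nor give strain, age, sex, treatment or how the populations were separated. From knowledge of the field, and not from the labels, DKO is taken to mean that desmin (Des) and nesprin 1 (Syne1) were both deleted. No other allele or agent was stated for any group.

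IL-33 is a cytokine held in the nucleus of stromal and epithelial cells and released when they are damaged. It binds ST2, the product of Il1rl1, which signals together with the accessory chain encoded by Il1rap, and ST2 on regulatory T cells is known to matter for muscle repair. Il1r1 encodes the signalling receptor for IL-1 alpha and IL-1 beta and shares that accessory chain, whereas Il1r2 encodes a decoy that binds IL-1 without signalling. Alternative transcripts of Il1rl1 encode a membrane receptor or a soluble decoy, and in the mouse a distal promoter is used mainly by haematopoietic cells and a proximal one by fibroblasts.

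In GRCm38.p6, all 5 genes lie on the plus strand. Il33 spans chr19:29925113-29960718 and Il1rap spans chr16:26581509-26730128. The other members share a receptor cluster, with Il1r2 at chr1:40084692-40125230, Il1r1 at chr1:40222480-40316201 and Il1rl1 at chr1:40404864-40465418. The RefSeq promoter table holds 2 starts for Il33, 2 for Il1rl1 and 2 for Il1r1. Those of Il33 and Il1rl1 are called upstream and downstream here, and a count per gene adds transcripts from both. The annotated extent of Il1rl1 begins before either of its starts, and that first start is not shown. For Il33 and Il1rl1 the promoters are shown, because the values below cannot tell which start was used. Nor can the values tell, for Il1rl1, membrane receptor from soluble decoy. The start used for Il1r1 cannot be told either, and its runs are not shown. Each run is the 250 bases before a start, 5′ to 3′ on the plus strand, from the RefSeq table of GRCm38.p6.
Il33 upstream start, chr19:29924863-29925112: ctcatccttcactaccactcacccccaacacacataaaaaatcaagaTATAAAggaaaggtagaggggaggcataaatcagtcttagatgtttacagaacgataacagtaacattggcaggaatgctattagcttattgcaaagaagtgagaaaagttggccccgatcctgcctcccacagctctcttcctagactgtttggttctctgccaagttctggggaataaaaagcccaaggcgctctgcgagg
Il33 downstream start, chr19:29945540-29945789: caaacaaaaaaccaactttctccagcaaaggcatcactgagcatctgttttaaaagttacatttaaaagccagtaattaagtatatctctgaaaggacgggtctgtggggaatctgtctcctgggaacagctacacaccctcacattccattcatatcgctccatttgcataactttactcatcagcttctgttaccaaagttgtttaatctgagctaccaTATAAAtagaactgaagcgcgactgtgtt
Il1rl1 upstream start, chr1:40429320-40429569: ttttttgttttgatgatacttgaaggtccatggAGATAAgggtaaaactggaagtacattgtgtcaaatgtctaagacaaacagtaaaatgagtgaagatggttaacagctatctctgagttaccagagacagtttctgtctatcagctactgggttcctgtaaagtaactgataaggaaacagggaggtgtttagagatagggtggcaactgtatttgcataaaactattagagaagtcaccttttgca
Il1rl1 downstream start, chr1:40439379-40439628: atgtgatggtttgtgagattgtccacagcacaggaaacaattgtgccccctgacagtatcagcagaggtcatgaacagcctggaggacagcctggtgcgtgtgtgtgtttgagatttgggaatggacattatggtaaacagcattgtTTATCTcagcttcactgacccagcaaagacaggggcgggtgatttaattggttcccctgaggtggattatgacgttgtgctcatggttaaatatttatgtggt
Capitals mark matches to the motifs searched on both strands. The first motif was the TATA box (TATAAA). The second was a binding motif of GATA factors (AGATAA). The third was that of AP-1 (TGANTCA), a factor that IL-1 signalling activates. No motif overlapped another. The Il33 runs each held TATAAA, beginning 203 bases before the upstream start and 29 bases before the downstream start. TATAAA occurred in 12.4% of 32851 promoters of this length. The Il1rl1 runs each held the GATA motif, 217 bases before the upstream start and, on the minus strand as TTATCT, 103 bases before the downstream start. AGATAA occurred in 9.99% of all promoters. The 4 runs held no match to the AP-1 motif, which 6.75% of promoters had. The runs of Il1r1, Il1r2 and Il1rap, searched alike but not shown, held no match to any of these motifs. These matches describe letters and not binding.

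Library totals were 5826000 to 17730111 counts. Values are CPM, read counts scaled to a common library total after TMM normalisation, and a fold is a log2 difference with its standard error (SE) from the edgeR quasi-likelihood fit. A gene is called at an adjusted p below 0.05 over all genes tested. For the members, which were chosen with results known, a call only places them against that threshold. A member's call that holds with a library left out reuses these data and is no separate support. A count of 0 allows up to 3 counts, which is 0.177 to 0.47 CPM depending on the library and covers counting error only. Des averaged 4.54 CPM in FAP DKO against 15.8 CPM in FAP WT (log2 −1.81 ± 0.18, adjusted p = 2.7e-07) and was called lower in Misc and SMP as well. Syne1 was called lower in Misc DKO and SMP DKO but was not called in FAP (log2 −0.31 ± 0.12, adjusted p = 0.11). The labelled populations differed in their defining markers. Summed fibro/adipogenic markers lay at 74240 to 94700 CPM in FAP DKO and 74170 to 76570 CPM in FAP WT. In Misc they lay at 31070 to 34460 CPM in DKO and 33570 to 37330 CPM in WT, beside tendon markers of 51630 to 73690 CPM in Misc DKO and 53290 to 56860 CPM in Misc WT. Satellite cell markers were at 2028 to 2098 CPM in SMP DKO and 2039 to 2096 CPM in SMP WT, against at most 132.5 CPM in any FAP or Misc library.

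SMP DKO replicate 2 stood apart. Its 11 measured leukocyte and macrophage markers summed to 363 CPM, against 35.6 CPM in SMP DKO replicate 1 and 30.3 and 23.6 CPM in SMP WT. Its fibro/adipogenic markers summed to 10650 CPM, against 2039 CPM in replicate 1 and 2421 and 2762 CPM in SMP WT. Its endothelial markers summed to 664 CPM, against 119 CPM in replicate 1 and 299 and 233 CPM in SMP WT. SMP libraries are therefore given singly, and SMP DKO differences of single genes also without that library. Libraries are called biological replicates in the design text. Nothing names the animal behind each one. P-values rest on a spread between libraries that was estimated from all 6 groups together and moderated across genes.

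Il33, the ligand, was highest in FAP. It had 141.4, 181.1, 182.6 and 205.8 CPM in FAP DKO, against 136.1, 161.2, 139.1 and 128.2 CPM in FAP WT. The groups overlapped, since FAP DKO replicate 1 lay within the WT range, and the log2 difference of 0.33 ± 0.19 was not called. In Misc, Il33 had 49.2, 98.9, 66.3 and 60.7 CPM in DKO, against 82.6, 105.5, 120.3 and 80.3 CPM in WT. Of the DKO libraries 3 lay below every WT library and replicate 2 lay within the WT range, and the log2 difference of −0.50 ± 0.20 was not called, although without that replicate it was −0.73 and called. In SMP, Il33 had 78.1 and 45.2 CPM in DKO, against 34.6 and 37.2 CPM in WT. Both DKO libraries lay above both WT libraries, where the groups of 55.7% of all genes tested did not overlap. The log2 difference was 0.78 ± 0.29, not called, and without SMP DKO replicate 2 it was 1.11 and called.

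Il1rl1, which encodes the IL-33 receptor ST2, was higher in DKO than in WT in all 3 populations. It had 39.8, 87.6, 41.8 and 38.2 CPM in FAP DKO, against 11.7, 16, 17.7 and 18.1 CPM in FAP WT. The lowest DKO library was above the highest WT library, and FAP DKO replicate 2 was far above the other DKO libraries. The log2 difference was 1.70 ± 0.33, a call that held in each of the 8 fits without 1 of these libraries, at 1.33 to 1.82. In Misc, Il1rl1 had 9.33, 20.7, 15.1 and 16.3 CPM in DKO, against 4.01, 2.21, 4.83 and 2.27 CPM in WT. Those groups did not overlap either, and the log2 difference of 2.18 ± 0.39 was called in each of its 8 fits without 1 library, at 2.00 to 2.38. Groups did not overlap for 19.2% of all genes tested in FAP and 21.2% in Misc. In SMP, Il1rl1 had 3.95 and 12.4 CPM in DKO, from 30 and 84 counts, against 1.70 and 1.58 CPM in WT, from 21 and 18 counts. The higher DKO value belonged to replicate 2. The log2 difference was 2.29 ± 0.67 and called, but without that replicate it was 1.25 and not called, and 1 of the 4 fits without 1 SMP library kept the call.

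Il1r1, the signalling IL-1 receptor, had fitted log2 differences of 0.33 to 0.39 between genotypes. It had 177.8, 276.2, 227.2 and 247.3 CPM in FAP DKO, against 187, 182.6, 206.1 and 147 CPM in FAP WT. FAP DKO replicate 1 lay within the WT range, and the log2 difference was 0.36 ± 0.22. In Misc, Il1r1 had 58, 85.4, 57.5 and 70.1 CPM in DKO, against 51, 54.7, 62.6 and 47.2 CPM in WT, a log2 difference of 0.33 ± 0.23 between overlapping groups. In SMP, it had 58.8 and 101.8 CPM in DKO, against 85.7 and 36.8 CPM in WT. Its log2 difference there was 0.39 ± 0.33. This became −0.07 without SMP DKO replicate 2, −0.11 without SMP WT replicate 2 and 1.12, a call, without SMP WT replicate 1. With all libraries Il1r1 was not called between genotypes in any population.

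Il1r2, the decoy receptor, was the member most restricted to FAP. It had 12.1, 7.05, 14.4 and 5.39 CPM in FAP DKO, against 15.5, 18.4, 20.1 and 11.9 CPM in FAP WT. The pair of lowest values were DKO and the pair of highest WT, the groups overlapped, and the log2 difference of −0.74 ± 0.36 was not called. Misc had few reads, at 3, 5, 6 and 0 counts in DKO and 2 to 5 counts in WT. In SMP, Il1r2 had 2 and 24 counts in DKO, or 0.264 and 3.56 CPM, against 3 and 0 counts in WT. The 24 counts were in the library with leukocyte and fibro/adipogenic markers. The call in SMP was lost without it, and no fold is given because the fitted value rests on the 3 WT counts.

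Il1rap, the shared accessory chain, had the most even level. It had 30.5, 30.7, 38.4 and 33 CPM in FAP DKO, against 40.3, 43.4, 36.8 and 35.2 CPM in FAP WT. FAP DKO replicate 3 lay within the WT range, and the log2 difference of −0.23 ± 0.12 was not called. In Misc, Il1rap had 26, 37.4, 37.4 and 30 CPM in DKO, against 26.6, 26.6, 26.2 and 21 CPM in WT. Of the Misc DKO libraries 3 lay above every WT library and replicate 1 lay within the WT range. The log2 difference of 0.38 ± 0.12 was called, and the call was lost in 4 of the 8 fits without 1 library, at 0.28 to 0.38. In SMP, Il1rap had 26.5 and 29.2 CPM in DKO, against 24 and 24.4 CPM in WT, a log2 difference of 0.20 ± 0.17, or 0.12 without SMP DKO replicate 2, that was not called in either fit. Exons of Il1rap overlap those of the antisense gene Gm20319 by 353 bases, and no source used here says whether counting used strand.

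**Figure D1:**
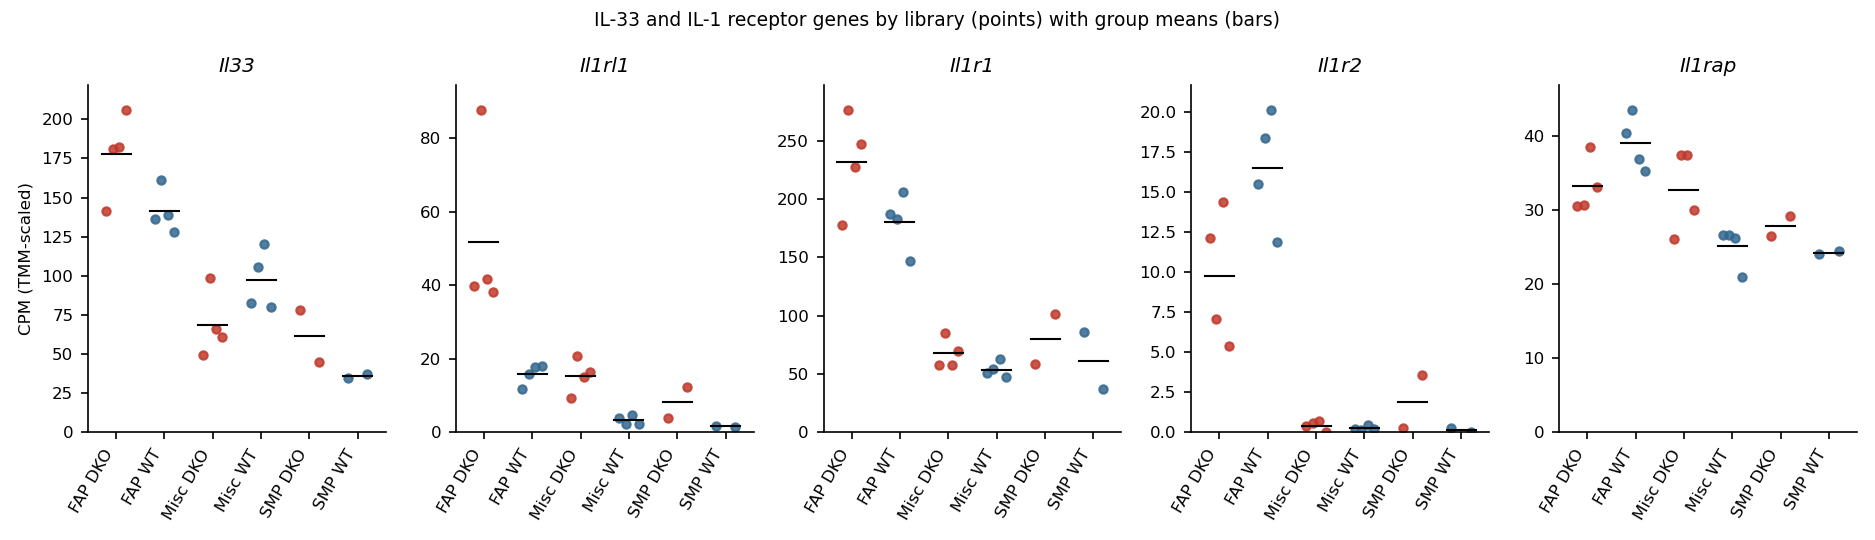
CPM of each member (vertical axes, linear and starting at 0) in every library, as points, with group means as bars; DKO is red and WT blue. Il1rl1 was the only member whose DKO libraries all lay above the WT libraries of their population in FAP, Misc and SMP alike.

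**Figure D2:**
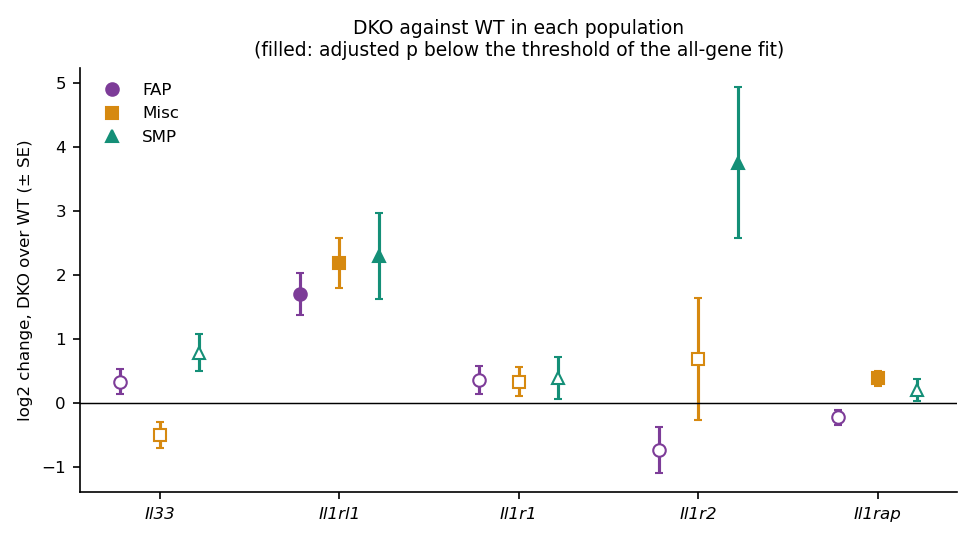
log2 change of DKO over WT with its SE (vertical axis) for each member in FAP, Misc and SMP; filled symbols passed the threshold of the all-gene fit. Il1rl1 lay at 1.70, 2.18 and 2.29 in FAP, Misc and SMP; the Il1r2 value in SMP rests on 3 WT counts and on 1 DKO library.

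Counted together, 1 of the 5 members was called higher in FAP DKO (Il1rl1), as were 5.58% of all genes tested. In Misc DKO 2 were called higher (Il1rl1 and Il1rap), as were 9.15% of all genes, and in SMP DKO 2 (Il1rl1 and Il1r2), as were 11.8%. Without SMP DKO replicate 2 the 1 member called in SMP was Il33. With all libraries no other member was called. The median log2 difference of the members was 0.33 in FAP, 0.38 in Misc and 0.78 in SMP, beside −0.01, 0.01 and 0.01 over all genes. Because the members were chosen with such results known, nothing is read from these shares.

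Several marker sums moved with genotype in the libraries behind the Il1rl1 difference. In FAP, tendon markers summed to 3160 to 5051 CPM in DKO against 715.7 to 969.5 CPM in WT, and endothelial markers to 145.3 to 247.8 CPM in DKO against 310.5 to 403.4 CPM in WT. The leukocyte and macrophage markers summed to 25.3 to 62.9 CPM in FAP DKO against 13.4 to 28.4 CPM in FAP WT. Of these markers 8 were tested, and Cd68 was the 1 called, at 19.4 CPM in FAP DKO against 9.06 CPM in FAP WT. Single abundant genes carried most of the tendon and endothelial shifts in summed CPM, but other markers moved as well. Thbs4 averaged 3163 CPM in FAP DKO against 330 CPM in FAP WT and was 1 of 2 tendon markers called of 8. The other was Scx (log2 1.73, edgeR adjusted p = 0.0033). Of those not called, Comp, Fmod and Tnmd had log2 differences of 0.88, 0.73 and 0.5. Mkx, Chad and Kera had −0.09, −0.27 and −0.24. Tek averaged 138 CPM in FAP DKO against 277 CPM in FAP WT (log2 −1.01) and was the 1 endothelial marker called of 10. Of the others, Kdr had a log2 difference of 0.93 and the rest lay lower in DKO, at −1.19 to −0.74. The endothelial list median was −0.9, beside −0.01 over all genes. In Misc, leukocyte and macrophage markers summed to 15.6 to 30.8 CPM in DKO against 16.2 to 27.4 CPM in WT. Of the 8 tested Cd79a was the 1 called, at 1.99 CPM in Misc DKO against 0.418 CPM in Misc WT. Endothelial markers summed to 49 to 79 CPM in Misc DKO against 92.1 to 127.5 CPM in Misc WT. Tek was again the 1 called of 10, at 24.8 CPM in Misc DKO against 63.9 CPM in Misc WT. Satellite cell markers summed to 62.6 to 117.8 CPM in Misc DKO against 45.6 to 67.5 CPM in Misc WT. Of the 8, 2 were called higher, Myod1 (log2 2.62, edgeR adjusted p = 0.019) and Vcam1 (log2 0.41, edgeR adjusted p = 0.034). Most of the sum was Vcam1, at 62.4 CPM in Misc DKO against 47.0 CPM in Misc WT. Vcam1 is also on the list of IL-1 response genes below, so its call counts in both lists. Pi16, a fibro/adipogenic marker, averaged 306 CPM in Misc DKO against 43.6 CPM in Misc WT (log2 2.82, edgeR adjusted p = 0.0012) and was the 1 called of 8. Of the others, Lum and Gsn had log2 differences of 0.3 and 0.25. Dpp4, Dcn, Pdgfra, Cd34 and Ly6a had −0.71, −0.41, −0.37, −0.11 and −0.01. The median of this list was −0.06, beside 0.01 over all genes. Of 8 tendon markers in Misc 2 were called higher and 3 lower. Over all genes tested, 10.7% were called in either direction in FAP and 18.7% in Misc. The share was larger for tendon markers in both, though on 2 genes of 8 in FAP. The other lists with a call named here had 1 or 2 genes called of 8 or 10. That is too few to place their shares above or below those of all genes, and nothing is read from them. The part of these marker shifts in the Il1rl1 difference was not tested. Markers of leukocytes that respond to IL-33 were near 0 in FAP. The 12 genes, which cover regulatory T cells, type 2 lymphocytes and mast cells, summed to 0.29 to 3.36 CPM in DKO against 0.405 to 1.34 CPM in WT. Foxp3, Klrg1 and Fcer1a had no read in either FAP group. In Misc these markers summed to 0.12 to 1.56 CPM in DKO against 0.454 to 0.707 CPM in WT, with 8 and 6 of the 12 at 0. In SMP they summed to 1.71 and 32.9 CPM in DKO, the higher value in replicate 2, against 0.243 and 2.10 CPM in WT. In bulk samples, fewer cells of a type and less RNA per cell cannot be told apart.

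Whether the genotype difference itself differed between populations was tested in the same fit. For Il1rl1, the difference in FAP minus that in Misc was −0.49 ± 0.51, FAP minus SMP −0.59 ± 0.75, and Misc minus SMP −0.11 ± 0.77, and none was called, which does not show that they were equal. Without SMP DKO replicate 2 both differences from SMP changed sign, to 0.44 and 0.93, and were not called. For Il33, FAP minus SMP was −0.45 ± 0.35, or −0.78 without SMP DKO replicate 2, and not called in either fit. Its change in Misc minus that in SMP was −1.28 ± 0.35, the 1 member called lower in a comparison that called 4.34% of all genes lower, and it was −1.62 and still called without SMP DKO replicate 2. The call was lost in 4 of the 12 fits without 1 library, at −0.86 without SMP DKO replicate 1. Its change in FAP minus that in Misc was 0.83 ± 0.28 and not called. FAP and Misc libraries of the same replicate number deviated together, and with replicate number as a block within genotype the difference was 0.87 and called. Without the block it was called in 1 of 16 fits without 1 library, at 1.06 without Misc DKO replicate 2. Il1rap differed by −0.60 ± 0.17 between FAP and Misc, called at the edge of the threshold where 1.42% of all genes were called lower. It was −0.58 and called with that block, and the call was lost in 14 of the 16 fits without 1 library. For Il1r2, FAP minus SMP was called lower (5.42% of all genes were), on the few SMP counts given above, and not without SMP DKO replicate 2.

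Between populations, the members were higher in FAP. All 5 were called higher in FAP WT than in Misc WT (19.3% of all genes were) and than in SMP WT (31.1%). The call of Il33 over Misc WT was lost in 6 of 8 fits without 1 library, at 0.44 to 0.56. In DKO, 4 of the 5 were called higher in FAP than in Misc (16.0% of all genes) and 4 than in SMP (29.2%), Il1rap being the exception in both. These comparisons use the same FAP libraries. Il33 exceeded Misc by 1.37 ± 0.20 in DKO and 0.54 ± 0.19 in WT on the log2 scale. Il1rl1 exceeded Misc by 1.74 ± 0.33 in DKO and 2.22 ± 0.38 in WT, and Il1r1 by 1.78 ± 0.23 in DKO and 1.74 ± 0.23 in WT. Il1r2 exceeded Misc by 4.48 ± 0.58 in DKO and 5.90 ± 0.56 in WT. The decoy thus had the largest difference between FAP and Misc of the 5 members in these fits, on the 0 to 6 counts per Misc library given above, while Il1rap differed by 0.02 ± 0.12 in DKO and 0.63 ± 0.12 in WT.

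Against SMP, the log2 differences of FAP in DKO were 1.52 ± 0.26 for Il33, 2.67 ± 0.47 for Il1rl1, 1.53 ± 0.30 for Il1r1 and 0.26 ± 0.15 for Il1rap. Without SMP DKO replicate 2 they were 1.20 for Il33, 3.70 for Il1rl1, 1.99 for Il1r1 and 0.34 for Il1rap, with the same calls. Il1r2 differed from SMP DKO by 2.41 ± 0.61. No fold is given without that replicate, since the other SMP DKO library had 2 counts. In WT the differences were 1.98 ± 0.27 for Il33, 3.26 ± 0.57 for Il1rl1, 1.56 ± 0.30 for Il1r1 and 0.69 ± 0.15 for Il1rap. Fewer members were called between the other populations. In DKO, 1 member was called between Misc and SMP (29.7% of all genes were lower), Il1r2 lower in Misc, and without SMP DKO replicate 2 the 1 call was Il1rl1 higher in Misc, at 1.97. In WT, Il33 alone was called higher in Misc than in SMP, by 1.44 ± 0.26, where 30.6% of all genes were higher.

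Levels of different genes can be set side by side per kilobase of annotated exon. On that scale Il33 had the highest mean in each of the 6 groups. In SMP WT replicate 1, however, Il1r1 was above Il33 (14 against 13.3 CPM per kb). In FAP DKO the mean levels were 68.2 CPM per kb for Il33, 38.0 for Il1r1, 7.59 for Il1rl1, 6.87 for Il1r2 and 3.86 for Il1rap. In FAP WT they were 54.2 for Il33, 29.6 for Il1r1, 11.6 for Il1r2, 4.52 for Il1rap and 2.32 for Il1rl1. Il1rl1 was thus the lowest member in FAP WT. Its order with Il1r2 in FAP DKO differed between libraries. Il1r2 was above Il1rl1 in replicate 1 (8.54 against 5.83 CPM per kb) and replicate 3 (10.2 against 6.12), and below it in replicate 2 (4.97 against 12.8) and replicate 4 (3.8 against 5.59). The accessory chain lay below the ligand and Il1r1 in both. Ordering groups by mean CPM, Il33 ran FAP DKO, FAP WT, Misc WT, Misc DKO, SMP DKO and SMP WT, and neighbours overlapped except FAP WT with Misc WT and SMP DKO with SMP WT. With SMP DKO replicate 1 alone, at 78.1 CPM, SMP DKO would precede Misc DKO at 68.8 CPM. Il1rl1 ran FAP DKO, FAP WT, Misc DKO, SMP DKO, Misc WT and SMP WT. With replicate 1 alone, at 3.95 CPM, SMP DKO keeps its place above Misc WT at 3.33 CPM. FAP DKO stood clear of the rest, FAP WT (15.9 ± 2.93 CPM, SD, n = 4) and Misc DKO (15.4 ± 4.69 CPM, SD, n = 4) overlapped, and SMP WT lay below Misc WT. Il1r1 and Il1r2 each separated both FAP groups from the rest, with every other pair of neighbours overlapping, and no neighbours separated for Il1rap.

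The genes of the cluster that holds Il1r2, Il1r1 and Il1rl1 did not move together. Its annotated order is Map4k4, Il1r2, Il1r1, Il1rl2, Il1rl1, Il18r1, Il18rap and Slc9a4, all on the plus strand. Il18r1, which encodes the ligand-binding chain of the IL-18 receptor, begins 133 bases after Il1rl1 ends and fell in FAP DKO. It had 0.56, 0.47, 0.581 and 0.196 CPM in FAP DKO, from 6, 3, 6 and 2 counts, against 3.53, 5.57, 6.51 and 1.90 CPM in FAP WT, from 45, 55, 78 and 20 counts. The groups did not overlap, and the log2 difference was −3.24 ± 0.55 (edgeR quasi-likelihood test, adjusted p = 0.00055), opposite in sign to that of Il1rl1. It was called in all 8 fits without 1 library, at −3.49 to −2.98. Outside FAP, Il18r1 had 0 to 3 counts per library. Il1rl2, the receptor for IL-36, was FAP-high like its neighbours, with values of 60.4, 48.1, 43.2 and 47.2 CPM in FAP DKO compared with 63.8, 58, 68.4 and 52.1 CPM in FAP WT. Its log2 difference was −0.28 ± 0.18 (edgeR adjusted p = 0.35). In SMP it had 2.64 and 8.44 CPM in DKO against 2.84 and 1.31 CPM in WT, a rise (log2 1.37 ± 0.42, edgeR adjusted p = 0.025) that fell to 0.32 without SMP DKO replicate 2 (edgeR adjusted p = 0.69). Map4k4, a kinase gene upstream, was not called between genotypes in any population, with a log2 difference of 0.08 ± 0.09 in FAP (edgeR adjusted p = 0.66). Slc9a4, a sodium-proton exchanger gene downstream, rose in Misc DKO on 2 to 5 counts per library against 0 or 1 in Misc WT (edgeR adjusted p = 0.0081), and was called in all 8 fits without 1 library. Il18rap had at most 2 counts in any library other than SMP DKO replicate 2, which had 12.

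**Figure D3:**
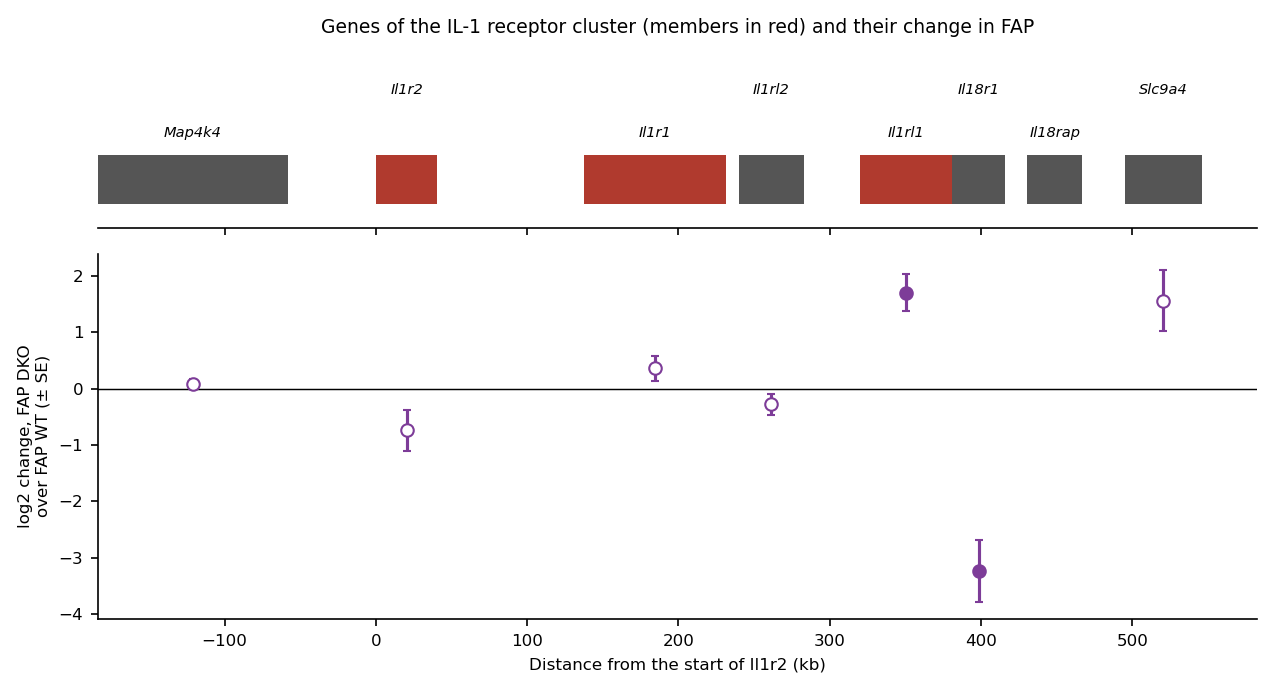
Upper panel: extents of the 8 genes, with members in red, by distance from the start of Il1r2 in kb (horizontal axis). Lower panel: log2 change of FAP DKO over FAP WT with its SE at each gene's midpoint, filled where called; Il1rl1 (1.70) and the adjacent Il18r1 (−3.24) lay on opposite sides of 0, and Il18rap was not tested for want of counts.

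Genes with a profile most like each member were found over the 6 group means of log2 CPM, as the smallest root-mean-square (RMS) difference after centring, among 10114 genes. Mcoln2, which encodes an endolysosomal cation channel, was the closest to Il1rl1, with an RMS difference of 0.086 on the log2 scale, where the profile of Il1rl1 itself has an RMS spread of 1.56. Mcoln2 had 29.1, 65.2, 41 and 51.9 CPM in FAP DKO against 10.8, 18.3, 22.3 and 18.7 CPM in FAP WT. In Misc it had 8.96, 24.5, 7.91 and 18 CPM in DKO against 1.53, 4.26, 4.92 and 2.95 CPM in WT. In both populations its highest DKO library was replicate 2, as for Il1rl1. In SMP it had 6.98 and 7.26 CPM in DKO against 1.38 and 1.84 CPM in WT, so that its DKO libraries were level where those of Il1rl1 were not. The next for Il1rl1 were Prss12 (0.428) and Mlkl (0.493), both much farther off. The closest to Il33 were Abcc4 (0.196), B4galt1 (0.206) and Anxa7 (0.207), and to Il1r1 Irf7 (0.155), Fyn (0.172) and Plscr1 (0.18). For Il1r2 they were Ackr2 (0.231), Duox1 (0.36) and Smpd3 (0.438). For Il1rap they were Dctn3 (0.077), Cap1 (0.08) and Nt5m (0.081), but its profile is nearly flat, with an RMS spread of 0.24. These genes were picked for their likeness, over groups that share libraries, and no test applies.

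**Figure D4:**
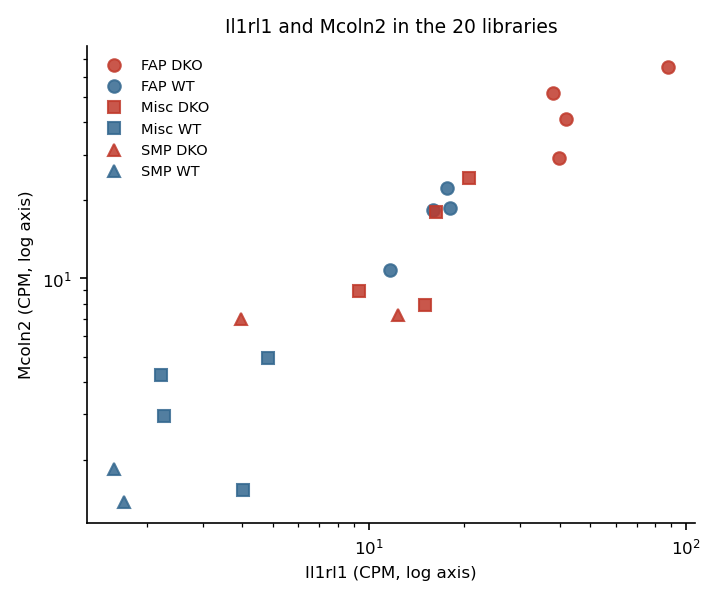
Mcoln2 against Il1rl1 in each of the 20 libraries, both in CPM on log axes; red symbols are DKO and blue WT, with circles for FAP, squares for Misc and triangles for SMP. FAP DKO lies at the upper right and SMP WT at the lower left.

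Other genes of the pathway came from 7 lists of 80 genes, of which 66 were tested. In FAP DKO 3 were called higher and 3 lower, 9.09% of the 66, against 10.7% of all genes called in either direction. In Misc DKO 7 were higher and 6 lower, 19.7% against 18.7%, and in SMP DKO 9 were higher and 3 lower, 18.2% against 23.0%. The list medians on the log2 scale were −0.01, 0.03 and 0.29 for FAP, Misc and SMP, beside −0.01, 0.01 and 0.01 over all genes.

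Of the 4 genes tested that encode other stromal cytokines or related receptors, 2 were called higher in both FAP and Misc. Over all genes tested, 5.58% were called higher in FAP and 9.15% in Misc. Tslp, which encodes an alarmin that promotes type 2 immunity as IL-33 does, had 26.3, 42.3, 38.7 and 45.5 CPM in FAP DKO against 13.6, 20.8, 20.9 and 16.7 CPM in FAP WT. In Misc, Tslp had 6.6, 11.5, 10.2 and 5.96 CPM in DKO against 3.18, 4.26, 3.82 and 4.09 CPM in WT. No DKO library overlapped the WT libraries in either population. Tslp rose by 1.09 ± 0.21 in FAP (edgeR adjusted p = 0.0017) and by 1.17 ± 0.26 in Misc (edgeR adjusted p = 0.0029) on the log2 scale. Crlf2, which encodes the TSLP receptor chain, averaged 10.3 ± 3.03 CPM in FAP DKO against 5.35 ± 1.31 CPM in FAP WT, and 10.7 ± 3.15 CPM in Misc DKO against 4.21 ± 1.32 CPM in Misc WT (SD, n = 4 each). Its log2 change was 0.92 ± 0.25 in FAP (edgeR adjusted p = 0.017) and 1.38 ± 0.26 in Misc (edgeR adjusted p = 0.00043). The FAP call for Crlf2 was lost without FAP DKO replicate 2 (0.78) and without FAP WT replicate 2 (0.77). In SMP none of the 4 was called, and Tslp had 1.98 and 4.44 CPM in DKO against 0.73 and 1.75 CPM in WT.

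Of 9 regulators and feedback inhibitors of NF-kB tested, 1 was called lower in FAP and 3 in Misc, and none higher. That is 11.1% of the list in FAP, beside 10.7% of all genes called in either direction, and 33.3% in Misc beside 18.7%. NF-kB is the transcription factor downstream of these receptors. Nfkbiz, an IL-1-inducible regulator of NF-kB, had 325.5, 393.9, 369.8 and 386.7 CPM in FAP DKO against 531.6, 529.7, 476.6 and 490.3 CPM in FAP WT. It fell by 0.46 in FAP (log2, SE 0.12, edgeR adjusted p = 0.014), by 0.54 in Misc (SE 0.12, edgeR adjusted p = 0.0026) and by 0.95 in SMP (SE 0.17, edgeR adjusted p = 0.00047), where without SMP DKO replicate 2 it was −1.35 and called. The FAP call was lost with both FAP replicates 1 left out (−0.38, edgeR adjusted p = 0.1). Tnfaip3, which encodes the deubiquitinase A20, averaged 92.7 ± 9.96 CPM in Misc DKO against 139 ± 18.9 CPM in Misc WT (SD, n = 4 each) and fell by 0.59 (log2, edgeR adjusted p = 0.0091). Cyld fell in Misc as well, a call lost without Misc DKO replicate 1 (−0.32) or Misc WT replicate 1 (−0.33). In SMP, Nfkbiz and Nfkbie fell and Otulin rose, the last by 0.52 (log2, edgeR adjusted p = 0.043), a call lost in 3 of 4 fits without 1 library, at 0.59 without SMP DKO replicate 2. Nfkbie was −0.96 and called without that library, and lost its call without SMP WT replicate 1 (−0.50).

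Receptor signalling genes from Myd88 to the NF-kB subunits mostly kept below the threshold. None of the 20 was called in FAP, and Myd88, the adaptor of these receptors, averaged 171.5 CPM in FAP DKO against 179.7 CPM in FAP WT (log2 −0.07 ± 0.13, edgeR adjusted p = 0.61). In Misc, the kinase gene Ikbkb rose by 0.55 ± 0.10 (log2, edgeR adjusted p = 0.0004) and Irak2 fell by 0.77 (log2, SE 0.26, edgeR adjusted p = 0.037). Ikbkb was called in all 8 fits without 1 library and Irak2 in 2 of them. In SMP, Irak2 and Tollip rose and Ikbkg fell. The Irak2 and Tollip calls were each lost in 3 of 4 fits without 1 library, with Irak2 at 0.26 and Tollip at 0.36 without SMP DKO replicate 2. Ikbkg was −1.08 and called without that library, and its call was lost without SMP DKO replicate 1 (−0.41) or SMP WT replicate 2 (−0.62).

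Response genes known from IL-1-treated fibroblasts went in both directions. Mmp13, a collagenase gene, had 1.4, 0.157, 0 and 1.86 CPM in FAP DKO against 5.26, 6.79, 6.09 and 2.28 CPM in FAP WT. In Misc, Mmp13 had 2.36, 2.87, 5.27 and 4.4 CPM in DKO against 40.9, 39.1, 22.5 and 14.6 CPM in WT. It fell by 2.46 in FAP (log2, SE 0.64, edgeR adjusted p = 0.02) and by 2.98 in Misc (SE 0.48, edgeR adjusted p = 0.00042). The FAP call was lost without FAP DKO replicate 2 (−2.22) or FAP WT replicate 2 (−2.31). Mmp3, which encodes stromelysin 1, rose in Misc by 1.58 ± 0.44 (log2, edgeR adjusted p = 0.022), a call lost in 5 of 8 fits without 1 library. Cxcl5, a chemokine gene, rose in FAP by 1.80 ± 0.53 (log2, edgeR adjusted p = 0.041), a call lost in 7 of 8 such fits. The list had 1 gene higher and 1 lower of 16 in FAP, and 2 higher (Mmp3 and Vcam1) and 2 lower (Mmp13 and Ptges) in Misc. Without 1 library, Mmp13 in Misc was called in all 8 fits, Vcam1 in 3 and Ptges in 1. In SMP, Mmp3 and Ptges were called higher, and each call was lost in 3 of 4 fits, with Ptges at 0.07 without SMP DKO replicate 2. Il6, a cytokine that IL-1 induces, averaged 843 CPM in FAP DKO against 536 CPM in FAP WT (log2 0.65 ± 0.26, edgeR adjusted p = 0.13). In Misc it averaged 211 CPM in DKO against 124 CPM in WT (log2 0.77 ± 0.27, edgeR adjusted p = 0.055). The groups did not overlap in either population. Neither difference was called, but both were called with only the compared groups in the fit (edgeR adjusted p = 0.0019 in FAP and 0.0028 in Misc), with a replicate block and with SMP DKO replicate 2 out of the shared fit. Neither was called without the filter on low counts or with DESeq2 size factors. In FAP, Il6 was called in no fit without 1 library and not by the DESeq2 Wald test. In Misc, the Wald test called it, as did the fit without Misc DKO replicate 1 (0.87) but no other fit without 1 library. In SMP, Il6 had 52.2 and 171.3 CPM in DKO against 71.3 and 79.3 CPM in WT.

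The IL-1 ligands themselves were scarce. Il1a had no read in any FAP or Misc library, and Il1b had 0 to 12 counts in FAP DKO against 0 to 8 in FAP WT. In SMP DKO, Il1b had 3 and 77 counts against 10 and 6 in SMP WT. The antagonist gene Il1rn had 1 and 60 counts in SMP DKO against 0 and 0 in SMP WT, the higher counts of both genes being in replicate 2. Of the 10 ligands, antagonists and binding proteins listed 5 were tested, and none was called in FAP or Misc. Il1rn was called in SMP, and the call was lost without that library. Among genes of cytokine processing, Casp4, which encodes caspase 11, rose in Misc by 1.00 ± 0.32 (log2, edgeR adjusted p = 0.039) and Capn2, a calpain gene, by 0.25 ± 0.08 (log2, edgeR adjusted p = 0.041), 2 of 9 tested. Each of these calls was lost in 6 or more of 8 fits without 1 library. In FAP none of the 9 was called. In SMP, Capn1 and Nlrp3 were called higher. Nlrp3 had 6 and 53 counts in SMP DKO against 0 and 0 in SMP WT and was still called without SMP DKO replicate 2 (edgeR adjusted p = 0.017), whereas Capn1 was not (log2 0.57, edgeR adjusted p = 0.1).

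**Figure D5:**
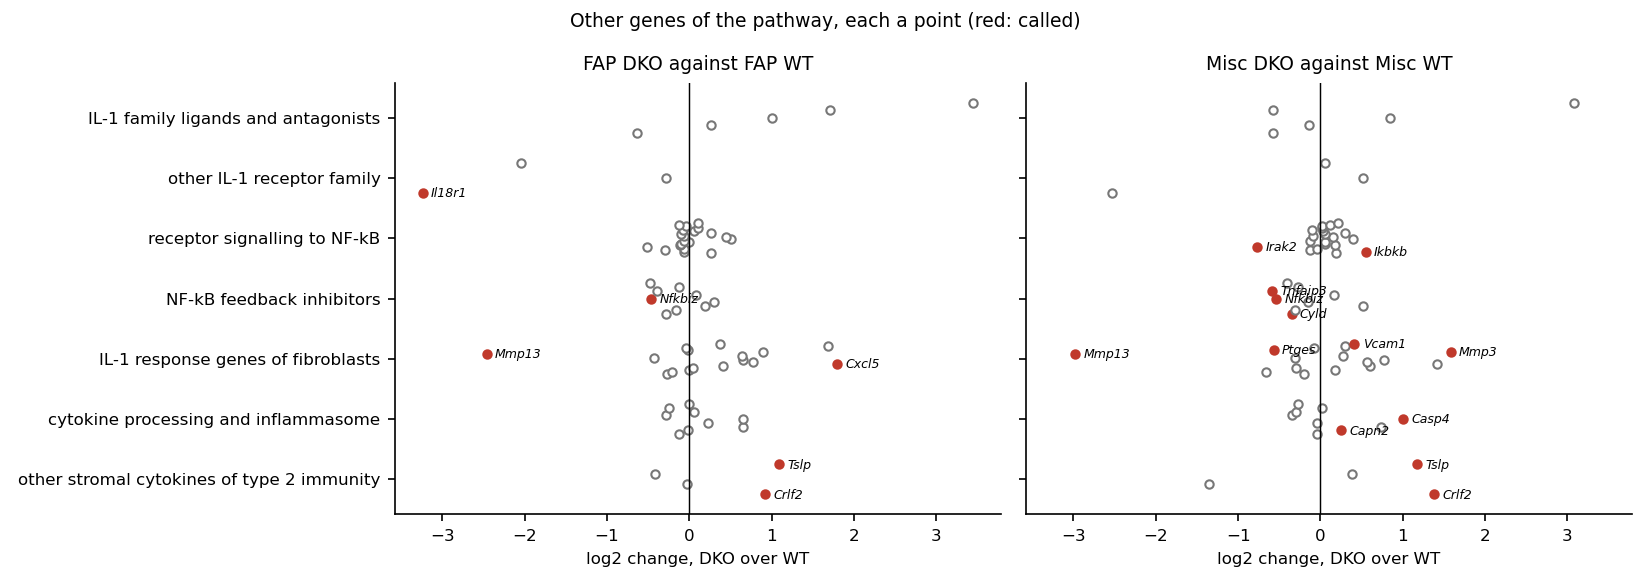
log2 change of DKO over WT (horizontal axis) for each tested gene of the 7 pathway lists (rows), in FAP at left and Misc at right; red, labelled points were called. Tslp and Crlf2 lie right of 0 and Nfkbiz and Mmp13 left of 0 in both populations.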

How the data were processed

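RNA of 20 libraries was read on an Illumina HiSeq and mapped by OSA to mm10 with RefSeq annotation, per the series design text. The authors deposited raw counts per gene. The submitters' processing notes name DESeq2 with no version. No source used here gives the counting tool or its use of strand. The members and gene lists were chosen with earlier results of these data known. Genes were kept by filterByExpr at a minimum count of 10 and a minimum total of 15, with 2 as the smallest group. This left 14179 of 24393, and 5031 had no count. By Entrez identifier 24312 matched RefSeq, and 52 damaged symbols were restored. A quasi-likelihood model with TMM scaling and robust dispersion was fitted to all 6 groups in edgeR 4.0.16 (R 4.3.3), without a block. P-values were adjusted by Benjamini-Hochberg over all genes tested and called below 0.05. SE is the absolute log2 fold change over the square root of F. The steps were checked on simulated counts. Library totals of 5826000 to 17730111 counts set the precision.

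Exon lengths were unions of annotated exons. Named genes were the members, the receptor cluster, up to 4 called genes per list and comparison with mean CPM of at least 1, by size of change, and the 3 genes most like each member with mean CPM of at least 5. Other pathway genes named (Myd88, Il6, Il1a, Il1b, Il1rn and Nlrp3), and the markers named with their differences, were chosen after their values were seen. Before blocked results were read, deviations from group means were correlated. In DKO, the correlation of FAP and Misc libraries with the same number was 0.18 to 0.34, and in WT it was 0.18 to 0.23. With different numbers it was −0.18 to 0.063. Numbers were therefore treated as pairing these populations within a genotype, in the fit with that block alone. This pairing comes from the data and no label. Folds, SEs and calls given without mention of that block do not account for it. The alternatives tried were no low-count filter, only the compared groups, replicate blocks, leaving out libraries, scaling by DESeq2 size factors and the Wald test of DESeq2 1.42.0.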

Additional observations from a re-analysis of the deposited data

Results flagged for a closer look

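Among the 20 groups of 4 libraries (5 members in 4 groups), 2 held a library far from the others, and chance gives about 1 in 20. Il1rl1 was at 87.6 CPM in FAP DKO replicate 2, the highest of 4. Without that library the difference between FAP DKO and FAP WT was still called. Il1rap was at 21 CPM in Misc WT replicate 4, the lowest of 4. Without it the Misc difference was 0.28 and not called. The change with genotype differed between populations by the test of that difference for 3 members. For Il1rap, FAP minus Misc was −0.60 on the log2 scale, at the edge of the threshold. For Il33, Misc minus SMP was −1.28. For Il1r2, FAP minus SMP was fitted at −4.49. This last value depends on the prior count of the fit, since SMP WT had 3 counts in all, and it was −1.73 and not called without SMP DKO replicate 2.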

How the results depend on the processing

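Of the 5 members, the number called changed as follows. With only the compared groups in the fit it was 2 in FAP (Il33 added, at 0.34), 1 in Misc, 0 in SMP, 0 between Misc DKO and SMP DKO, 2 between Misc WT and SMP WT, 3 between FAP DKO and SMP DKO (Il1r2 lost), and 0 for each difference of genotype effects between populations. With no filter on low counts it was 1 in SMP, 0 between Misc DKO and SMP DKO, 4 between FAP WT and Misc WT, and 0 for the differences FAP minus Misc and Misc minus SMP. The FAP minus Misc difference also had 0 with DESeq2 size factors and 0 with both FAP replicates 1 left out, which gave 4 between FAP WT and Misc WT. Leaving out 1 library gave 1 to 2 in Misc, 0 to 2 in SMP, 0 to 1 between Misc DKO and SMP DKO, 4 to 5 between FAP WT and Misc WT (Il33 lost), 1 to 2 between Misc WT and SMP WT, and 0 to 1 for each difference between populations. Pathway genes called numbered 6 in FAP, and 13 with only the compared groups, 12 with SMP DKO replicate 2 out of the shared fit, 3 with both FAP replicates 1 left out and 3 to 8 without 1 library. They numbered 13 in Misc and 7 to 13 without 1 library, and 12 in SMP, 0 with only the compared groups and 5 to 17 without 1 library. Il1r1 in SMP changed sign to −0.07 without SMP DKO replicate 2 and −0.11 without SMP WT replicate 2, and was 1.12 without SMP WT replicate 1. The DESeq2 Wald test called Il33 in Misc (−0.50) and SMP (0.81). The cause was not tested. Leaving out both FAP replicates 1, or SMP DKO replicate 2 from comparisons without it, was chosen after seeing the data.

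With replicate number as an additive replicate block over all libraries, the members called stayed at 1 in FAP, 2 in Misc and 2 in SMP, and Il1rl1 was 1.65, 2.11 and 2.21. Between DKO and WT, correlations of same-numbered libraries were −0.056 to 0.29 in FAP and −0.16 to 0.035 in Misc. With different numbers they were −0.21 to 0.16 in FAP and −0.088 to 0.11 in Misc. Those ranges overlap, and no pairing is read from them. In SMP, centring groups of 2 libraries forces values of equal size (−0.048 and 0.048), which cannot tell whether libraries pair. The block within genotype gave 2 calls for FAP minus Misc (Il33 and Il1rap) and changed no other count of members. SMP DKO and SMP WT have 2 libraries each, so a fit without 1 assumes that the lone library varies like the other groups, and Il1r2 in SMP WT, or in SMP DKO replicate 1 alone, has too few counts for a fold.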
